A study of Mus musculus with 96 samples.

Results

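The urea cycle enzymes described here are the products of 5 mouse genes, Nags, Cps1, Otc, Ass1 and Asl, which were chosen by gene name from a table of 56748 genes. The urea cycle turns the ammonia that amino acid breakdown releases into urea, and hepatocytes near the portal vein are known for holding the complete cycle. In mitochondria, N-acetylglutamate made by Nags activates carbamoyl phosphate synthetase (Cps1), and ornithine transcarbamylase (Otc) joins carbamoyl phosphate to ornithine to give citrulline. In the cytosol, argininosuccinate synthetase (Ass1) couples citrulline to aspartate and argininosuccinate lyase (Asl) releases arginine and fumarate.

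Poly-A RNA of liver, skeletal muscle and cerebral cortex was sequenced from 32 mice, and reads were counted per gene to ask how daily fasting changes gene expression in each tissue. Mice fed ad libitum (AL) always had chow, and mice on intermittent fasting (IF) went without food for 16 h of each day. AL mice 1 to 8 and IF mice 9 to 16 were labelled male, and the study describes its males as C57BL/6 mice that started the diets at 6 weeks of age, kept to them for 4 months and were killed near the end of the daily fast. AL mice 25 to 32 and IF mice 33 to 40 were labelled female, with no strain, age or time on the diet in the sources used here. The set of mice and the labelled sex cannot be told apart, so the sets are named by their mouse numbers. Each group held 8 mice per tissue, except cortex of AL mice 1-16 with 7. The depth, as the sum of gene counts, was 26097314 to 49838004 in the 95 libraries used, with a median of 36132954.

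The cortex library labelled AL mouse 1 was left out because it went against its male label. It held 213 CPM (counts scaled to a library of 1e06 counts) of Xist, an RNA of the inactive X chromosome, and no count of the Y-linked genes Ddx3y, Uty, Kdm5d and Eif2s3y. The other 95 of 96 libraries went with their labels. The tissues also went with their labels: summed over 6 hepatocyte markers, all liver libraries held 50484 to 126422 CPM and all muscle libraries 0.116 to 6.55 CPM. Cortex libraries held 4.21 to 4354 CPM of that sum, of which Ttr, a gene of the choroid plexus as well as the liver, was the most abundant. Skeletal muscle markers summed to at least 118299 CPM in muscle and at most 31.1 CPM elsewhere, and neuron and glia markers to at least 8074 CPM in cortex and at most 105 CPM elsewhere.

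In this text, a level is the count of a gene scaled to 1e06 counts of its library, with library sizes scaled by TMM, and it is given as CPM. A diet effect is the log2 fold change of IF over AL mice with its standard error (SE), from the quasi-likelihood test of edgeR. A gene is called changed when its Benjamini-Hochberg adjusted p over all genes tested lies under 0.05. Genes were tested in a tissue when their counts passed edgeR's expression filter.

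In liver of mice 1-16, Otc mRNA was lower and Asl mRNA higher in every IF mouse than in every AL mouse, while the diets overlapped for Nags, Cps1 and Ass1. The share of all liver genes without overlap between the diets was not counted. The test called 2 of the 5 members that passed the filter, 1 lower and 1 higher in IF mice. Of the 16204 liver genes tested, 7234 were called (44.6%), with 23.5% called higher and 21.1% called lower, so the share among members was near that of all genes. The median log2 fold change of the 5 members was -0.080, beside 0.06 over all genes tested. In these livers of mice 1-16 the 10 most abundant genes held 24.1 to 32.4% of the counts in AL and 18.4 to 23.4% in IF mice, without overlap. The part of this difference in the changes of Otc and Asl was not tested. In bulk liver, fewer cells of a type and less RNA per cell cannot be told apart.

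Nags (ENSMUSG00000048217) lies on chromosome 11 from 102036339 to 102040303 of GRCm39, on the plus strand, and makes the activator of the first step. Its liver mRNA ranged from 56.2 to 89.9 CPM with a median of 69.4 CPM in AL mice 1-16, and from 52.6 to 86.9 CPM with a median of 60.4 CPM in IF mice 1-16. The groups overlapped, with IF mouse 15 far above the other IF mice. The diet effect of -0.15 (SE 0.12, adjusted p = 0.311, lower than the AL median in 7 of 8 IF mice) did not pass the threshold. With each library left out in turn it ran from -0.24, without IF mouse 15, to -0.09, with an adjusted p of at least 0.0743. Nags is overlapped by the antisense gene Gm11586, which had at most 16 counts in a library.

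Cps1 (ENSMUSG00000025991), on chromosome 1 from 67162185 to 67270418 on the plus strand, encodes the mitochondrial synthetase that takes up ammonia. AL livers held 507 to 711 CPM of its mRNA with a median of 582 CPM, and IF livers 525 to 887 CPM with a median of 671 CPM, in mice 1-16. Most of the IF mice lay within the AL range, and 3 of 8 lay above it. The diet effect was 0.23 (SE 0.12, adjusted p = 0.1203, above the AL median in 7 of 8 IF mice). With each library left out in turn it ran from 0.13, without IF mouse 13, to 0.27, with an adjusted p of 0.0736 to 0.401.

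Otc (ENSMUSG00000031173) lies on chromosome X from 10118544 to 10187263 on the plus strand and encodes the enzyme that forms citrulline. Its mRNA was 316, 391 and 549.7 CPM in the lowest, the median and the highest AL liver of mice 1-16, and 101, 157 and 196 CPM in the IF livers. All 8 IF mice lay below all 8 AL mice, and mouse 9 was the lowest. Otc fell in IF mice, with a mean of 410 ± 79.8 CPM (SD, n = 8) in AL and 156 ± 30.5 CPM (SD, n = 8) in IF mice. The log2 fold change was -1.36 (SE 0.14, adjusted p = 2.66e-08).

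Ass1 (ENSMUSG00000076441), on chromosome 2 from 31360219 to 31410684 on the plus strand, encodes the synthetase that brings in the second nitrogen from aspartate. Its liver mRNA in mice 1-16 ran from 1233 through a median of 1657 to 2159 CPM in AL mice, and from 1285 through 1443 to 1968 CPM in IF mice. Every IF mouse lay within the AL range. The diet effect was -0.08 (SE 0.13, adjusted p = 0.650, below the AL median in 6 of 8 IF mice). With each library left out in turn it ran from -0.18 to -0.02. The count of Ass1 is uncertain to the extent that its reads were shared with the processed pseudogene Gm5424, on chromosome 10 from 61906902 to 61908141, since 84.7% of the 31-letter words of the longest Gm5424 transcript also occur in Ass1 transcripts. Gm5424 itself was called higher in IF liver, from 104 ± 12.8 CPM (SD, n = 8) to 148 ± 24.2 CPM (SD, n = 8), with a log2 fold change of 0.55 (SE 0.11, adjusted p = 3.14e-04, above all AL mice in 6 of 8 IF mice). In mice 25-40 its effect was 0.05 (adjusted p = 0.988), and the interaction of set and diet, at -0.47 (adjusted p = 0.298), was not called. With the counts of Gm5424 added to Ass1, an alternative chosen after seeing the data, the diet effect of Ass1 was -0.03 (adjusted p = 0.849, and 0.297 to 0.924 over all refits).

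Asl (ENSMUSG00000025533) lies on chromosome 5 from 130040099 to 130058088 on the minus strand and encodes the lyase that yields arginine. Its mRNA was 488 CPM in the lowest, 584 CPM at the median and 672 CPM in the highest AL liver of mice 1-16, against 932, 1153 and 1317 CPM in IF livers. The groups did not overlap, and the lowest IF mouse, number 14, lay above the highest AL mouse, number 6. Asl rose from a mean of 587 ± 63.7 CPM (SD, n = 8) to 1122 ± 130 CPM (SD, n = 8), a log2 fold change of 0.97 (SE 0.10, adjusted p = 7.29e-08). No other annotated gene overlaps Cps1, Otc, Ass1 or Asl.

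**Figure D1:**
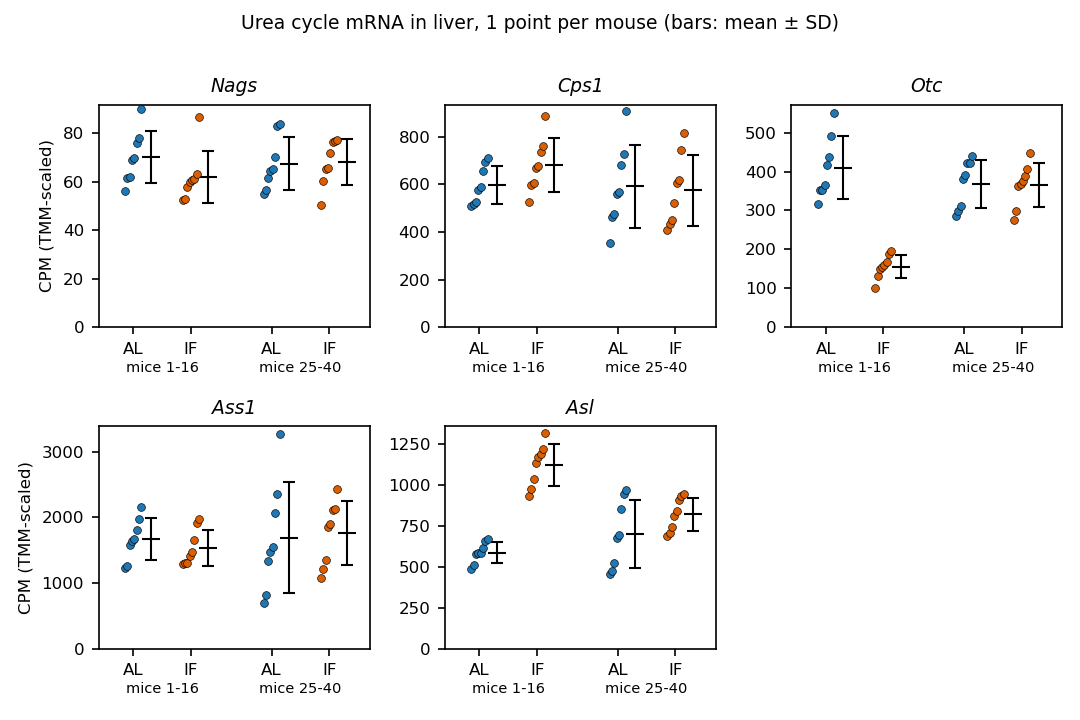
Liver mRNA levels of 5 urea cycle genes in CPM, with 1 point per mouse for AL and IF mice of both sets and bars for the mean ± SD. In mice 1-16 the IF points of Otc (101 to 196 CPM) lie below all AL points and those of Asl (932 to 1317 CPM) above them, and in mice 25-40 the diets overlap for each gene.

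Liver of mice 25-40 gave another picture, in which AL and IF mice overlapped for all 5 members tested. Otc mRNA was 286, 385 and 440.4 CPM in the lowest, median and highest AL mouse and 275, 372 and 449 CPM in IF mice. The IF levels of Otc in mice 25-40 lay close to the AL levels of either set. Asl mRNA was 454, 685 and 972 CPM in AL and 691, 824 and 946 CPM in IF mice. All 8 IF mice were above the AL median for Asl, yet all 8 lay within the AL range. The AL mice of this set were widely spread, with mouse 28 the lowest and mouse 27 the highest for Cps1, Ass1 and Asl. Ass1, for example, ran from 700.2 CPM in mouse 28 to 3265 CPM in mouse 27, with a median of 1508 CPM, and from 1083 through 1876 to 2434 CPM in IF mice. Cps1 mRNA ran from 352 through 563 to 907 CPM in AL and from 407 through 564 to 816 CPM in IF mice, and Nags mRNA from 55.1 through 64.8 to 83.9 CPM in AL and from 50.6 through 68.9 to 77.3 CPM in IF mice.

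In the edgeR test, 0 of the 5 members were called in liver of mice 25-40, as were 0 of all 15938 genes tested (0%). At an unadjusted p under 0.05, 919 genes and 0 members passed, and DESeq2 called 4 genes and 0 members. The diet effects were -0.01 (SE 0.13) for Otc and 0.23 (SE 0.16, adjusted p = 0.872) for Asl. They were 0.01 (SE 0.11) for Nags, -0.04 (SE 0.18) for Cps1 and 0.06 (SE 0.26) for Ass1. The median of the 5 members was 0.01, beside -0.01 over all genes tested.

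Whether the liver diet effects differed between the sets was tested as the interaction of set and diet over 32 livers, which called 4184 of 17658 genes (23.7%). It called 2 of the 5 members tested. The diet effect of Otc was higher in mice 25-40 than in mice 1-16 by 1.38 on the log2 scale (SE 0.19, adjusted p = 1.06e-06). For Asl the difference was -0.70 (SE 0.19, adjusted p = 0.00601), so that its diet effect was lower in mice 25-40, where it was not called. These are the members that were called in mice 1-16. The differences for Nags (0.20, adjusted p = 0.422), Cps1 (-0.23, adjusted p = 0.486) and Ass1 (0.17, adjusted p = 0.739) did not pass.

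The order of the members in liver was compared per length, as CPM per kb of exon in the authors' table. In AL mice 1-16 the medians were 686 for Ass1, 121 for Asl, 105 for Cps1, 92.1 for Otc and 24.5 for Nags. The ranges of the neighbours Asl, Cps1 and Otc overlapped, whereas Ass1 stood apart from Asl and Otc from Nags. In IF mice 1-16 the order was the same but the distances differed. Asl, with a median of 239 CPM per kb, then stood apart from Cps1, with 121 CPM per kb, and Cps1 from Otc. Otc fell to a median of 37.1 CPM per kb, and its range of 23.9 to 46.3 CPM per kb overlapped at the low end with that of Nags, 18.5 to 30.6 CPM per kb. Ass1 kept the top place at 598 CPM per kb. AL and IF mice 25-40 had the same order and the overlaps of AL mice 1-16.

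All 5 members were mainly liver transcripts. The other tissues were compared with liver in AL mice, with the mouse as a block, since the library names give the same mouse number in each tissue. Of the genes tested in AL mice 1-16, 38.9% were called higher in liver than in muscle and 37.5% higher in liver than in cortex, and in AL mice 25-40 the shares were 37.9% and 36.8%. Ass1 and Asl, which passed the filter in each tissue alone, were called higher in liver in each of these 4 comparisons, and Cps1, which passed it in liver and cortex, in both comparisons with cortex. No test between tissues is given where a member passed the filter in liver alone, since the filter then fixes the direction. Between muscle and cortex most genes differed, with 80.2% called in either direction in mice 1-16 and 80.5% in mice 25-40.

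Ass1 and Asl, which outside the liver serve arginine synthesis, were the members that every library of all 3 tissues held. Over all libraries Ass1 ranged from 700.2 to 3265 CPM in liver, from 24.4 to 48.5 CPM in cortex and from 0.615 to 3.11 CPM in muscle, so that the tissues did not overlap on this scale. These CPM levels are scaled within each tissue, whereas the fitted differences below are scaled over the 3 tissues together, and the 2 scales give different sizes. In AL mice 1-16 the level of Ass1 in liver was above that in muscle by 10.06 (SE 0.23) and above that in cortex by 6.38 (SE 0.20, adjusted p = 3.20e-16) on the log2 scale. Asl ranged from 454 to 1317 CPM in liver, from 18.1 to 27.9 CPM in cortex and from 5.44 to 16.5 CPM in muscle. Its liver level in AL mice 1-16 was higher by 5.79 (SE 0.11, adjusted p = 6.06e-19) than in muscle and by 5.48 (SE 0.12, adjusted p = 2.68e-18) than in cortex. The log2 ratios of the mean CPM levels were 10.3 and 5.63 for Ass1 and 6.03 and 4.75 for Asl. In AL mice 25-40 the corresponding log2 differences were 9.37 and 6.10 for Ass1 and 5.59 and 5.70 for Asl. Muscle and cortex differed in Asl by -0.31 (SE 0.10, adjusted p = 0.00830) in mice 1-16, and by 0.11 (adjusted p = 0.436) in mice 25-40, and the log2 ratios of mean CPM were -1.29 in mice 1-16 and -0.81 in mice 25-40. The size of the difference in Asl between muscle and cortex thus depends on the scaling, as does its sign in mice 25-40.

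The mitochondrial members Nags, Cps1 and Otc were close to zero outside the liver. Nags had no count in 31 of 32 muscle libraries, Cps1 none in 27 and Otc none in 30. Against a floor of 3 counts per library, Nags was at least 793-fold higher in liver than in muscle in AL mice 1-16 and at least 869-fold higher in AL mice 25-40. In cortex, Cps1 ranged from 0.0618 to 0.8286 CPM, Otc reached at most 0.234 CPM and Nags at most 0.208 CPM. These levels rest on few reads each, so no fitted fold change between tissues is given for Nags, Cps1 and Otc, and the diet effects of these genes outside the liver are uncertain.

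Per length, the order in AL cortex of mice 1-16 was Ass1 with a median of 14.3 CPM per kb and Asl with 4.40, and these ranges overlapped neither with each other nor with the rest. The other 3 members had medians of at most 0.0528 CPM per kb there, and their ranges overlapped. In muscle Asl stood above Ass1, with medians of 1.87 and 0.497 CPM per kb in AL mice 1-16, and the ranges did not overlap.

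**Figure D2:**
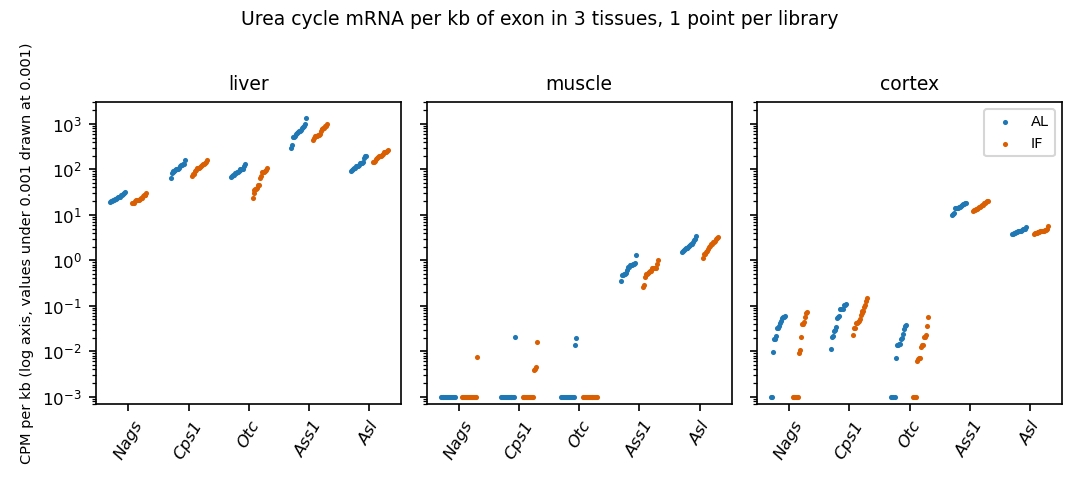
Level of the 5 urea cycle genes in CPM per kb of exon on a log axis, with 1 point per library of liver, muscle and cortex in AL and IF mice of both sets, and values under 0.001 drawn at 0.001. Nags, Cps1 and Otc are at or near the bottom of the axis in muscle, and each gene is highest in liver.

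In muscle, Ass1 and Asl were the members that passed the filter in both sets. Asl mRNA in muscle of mice 1-16 was 7.29, 9.04 and 10.8 CPM in the lowest, median and highest AL mouse and 5.44, 7.39 and 9.81 CPM in IF mice. The diets overlapped, with 4 of 8 IF mice below all AL mice. Ass1 mRNA was 0.855, 1.20 and 1.97 CPM in AL and 0.615, 1.29 and 1.67 CPM in IF mice. In mice 25-40, muscle Asl ranged from 7.96 to 16.5 CPM in AL and from 11.2 to 15.5 CPM in IF mice, and Ass1 from 1.44 to 3.11 CPM in AL and from 1.23 to 2.49 CPM in IF mice. These groups overlapped too.

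None of the muscle members was called. In mice 1-16 edgeR called 3463 of 15025 muscle genes (23.05%) and 0 of the 2 members tested, and 0 of the 2 passed an unadjusted p under 0.05 or the DESeq2 test. The diet effects were -0.22 (SE 0.11, adjusted p = 0.186) for Asl and -0.13 (SE 0.23, adjusted p = 0.731) for Ass1. In mice 25-40, 1 of 15308 genes was called (0.00653%), which was not a member but Rn18s-rs5, with a log2 fold change of 1.003 (SE 0.12, adjusted p = 0.00204), named after its value was seen. At an unadjusted p under 0.05, 1644 genes passed, and DESeq2 called 82, with 0 of the 2 members in either count. The diet effects were 0.12 (SE 0.12, adjusted p = 0.752) for Asl and -0.29 (SE 0.18, adjusted p = 0.585) for Ass1. The interaction of set and diet called 2314 of 16346 muscle genes (14.2%) by edgeR and 0 of the 2 members. Asl was the 1 of them under an unadjusted p of 0.05, with a difference of 0.35 (adjusted p = 0.179, unadjusted p = 0.0494), and DESeq2 called 0 of the 2.

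In cortex, Ass1, Asl and Cps1 passed the filter. Ass1 mRNA was 24.4, 34.5 and 44.1 CPM in the lowest, median and highest of 7 AL mice 1-16 and 31.8, 36.6 and 48.1 CPM in 8 IF mice. Asl mRNA was 18.1, 21.3 and 25.5 CPM in AL and 18.5, 21.2 and 23.2 CPM in IF mice. The diets overlapped for both, although 6 of 8 IF mice lay above the AL median for Ass1. In mice 25-40, Ass1 ranged from 26.5 to 43.4 CPM in AL and from 30.002 to 48.5 CPM in IF mice. Asl ranged from 18.4 to 23.0 CPM in AL and from 19.3 to 27.9 CPM in IF mice. All of these ranges overlapped.

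The edgeR test called 1332 of 18462 cortex genes (7.21%) in mice 1-16, and 0 of the 3 members tested, with 0 of the 3 at an unadjusted p under 0.05 and 0 by DESeq2. The count of all genes was 294 with the left-out cortex library of AL mouse 1 in the fit. It was 382 with the replicate number as a block, 498 without mice 2 and 10 and 2187 with DESeq2. With single libraries left out the count ran from 638 to 2060. Diet effects in mice 1-16 were 0.22 (SE 0.12, adjusted p = 0.277) for Ass1, -0.05 (SE 0.07, adjusted p = 0.726) for Asl and 0.40 (SE 0.43, adjusted p = 0.621) for Cps1. With the left-out library they were 0.20 (adjusted p = 0.337), -0.03 (adjusted p = 0.851) and 0.34 (adjusted p = 0.691). Over all refits in this set the adjusted p ranged from 0.141 to 0.463 for Ass1, 0.418 to 0.950 for Asl and 0.472 to 0.858 for Cps1. In mice 25-40, 2 of 18403 genes were called (0.0109%), mt-Atp6 with a log2 fold change of -2.43 and Gm11263 with -1.15 (adjusted p = 0.0434 for each), which were named after their values were seen. With the replicate number as a block no gene was called, and with single libraries left out the count ran from 0 to 254. At an unadjusted p under 0.05, 2069 genes passed, and DESeq2 called 61, with 0 of the 3 members in either count. The effects were -0.0043 (SE 0.11) for Ass1, 0.05 (SE 0.07) for Asl and -0.03 (SE 0.37) for Cps1. The interaction of set and diet called 397 of 19547 cortex genes (2.03%) by edgeR and 0 of the 3 members, with 0 of the 3 at an unadjusted p under 0.05 and 0 by DESeq2.

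**Figure D3:**
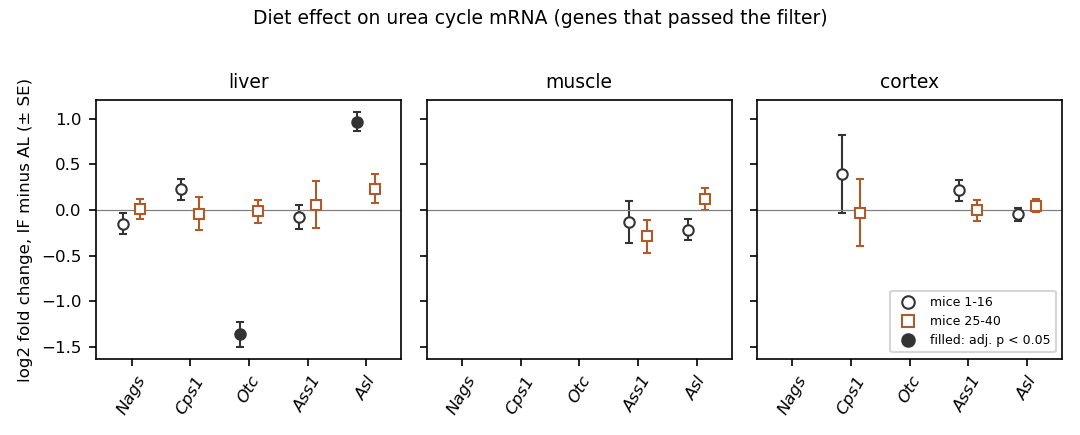
Diet effect (log2 fold change of IF over AL mice ± SE) of each urea cycle gene that passed the filter in liver, muscle and cortex of both sets, with filled points for genes called changed. The filled points are Otc (-1.36) and Asl (0.97) in liver of mice 1-16.

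The diet effects were also compared between tissues of the same mice as the interaction of tissue and diet. In mice 1-16 this test called 6693 of 21608 genes (30.97%) for liver minus muscle and 5773 (26.7%) for liver minus cortex. Asl was called in both, with a diet effect in liver above that in muscle by 1.14 (SE 0.13, adjusted p = 2.70e-08) and above that in cortex by 0.99 (SE 0.13, adjusted p = 6.06e-07). All 8 IF mice had more Asl mRNA than every AL mouse in liver, and none did in muscle or in cortex. For Ass1 the differences were -0.01 (adjusted p = 1) and -0.35 (adjusted p = 0.272), and for Cps1, tested in liver and in cortex alone, the difference for liver minus cortex was -0.22 (SE 0.39, adjusted p = 0.758). Nags and Otc passed the filter in liver alone, so no comparison of their diet effects between tissues is given. In mice 25-40, edgeR called 1 gene (0.00470%) for liver minus muscle, Rn18s-rs5 at -1.01 (adjusted p = 0.0450), and 0 genes (0%) for liver minus cortex. At an unadjusted p under 0.05, 1648 and 2037 genes passed, with 0 of the 2 members that were tested in liver and in muscle alone and 0 of the 3 tested in liver and in cortex alone, and DESeq2 was not run on these comparisons.

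Beyond the 5 enzymes, 56 other genes of the pathway were listed in 5 groups. The lists were chosen with earlier results of these data known, so their shares of called genes, in any tissue, are a description and not a test. In liver of mice 1-16, 50 of them were tested and 33 called, 23 higher and 10 lower, where 44.6% of all liver genes were called (23.5% higher, 21.1% lower), with a median log2 fold change of 0.27 beside 0.06 over all genes. Among carriers and transporters, which move ornithine, citrulline, aspartate, urea and ammonia, 5 of 9 tested rose and 1 fell, with a median of 0.48. Of 16 genes that supply ammonia, aspartate and bicarbonate, 7 rose and 4 fell, with a median of 0.26. In the group for fumarate return, 1 of 3 rose, and the median was 0.27. Genes for other uses of arginine, ornithine and ammonia had 5 of 10 tested higher and 3 lower, with a median of 0.15. Of 12 regulators, 5 rose and 2 fell, with a median of 0.05.

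The 6 pathway genes with the largest called changes in liver of mice 1-16 are named here. Odc1, which turns ornithine into putrescine, had 15.6 ± 4.44 CPM (SD, n = 8) in AL and 47.0 ± 9.69 CPM (SD, n = 8) in IF mice and rose by 1.63 (adjusted p = 1.88e-08). Cebpb, a transcription factor gene of the liver, went from 101 ± 26.95 to 290.3 ± 80.9 CPM (SD, n = 8 each) and rose by 1.56 (adjusted p = 2.78e-07). The diets did not overlap for either gene. Ppara, a nuclear receptor gene of the fasting response, rose by 1.24, and Sirt5, which encodes a mitochondrial deacylase that acts on Cps1, fell by 1.20, from 18.3 ± 3.79 to 7.80 ± 1.95 CPM (SD, n = 8 each), both without overlap. Got1, a cytosolic aspartate aminotransferase, rose by 1.16 (adjusted p = 0.00140) and Slc25a2, a mitochondrial ornithine carrier, by 1.14 (adjusted p = 0.00426), and for these 2 genes the diets overlapped. Slc25a2 was low, with 0.983 ± 0.293 CPM in AL and 2.11 ± 1.06 CPM in IF mice (SD, n = 8 each). The set by diet interaction was called for Odc1 (-1.57), Cebpb (-1.29), Ppara (-1.23), Sirt5 (1.15) and Got1 (-1.31) and not for Slc25a2 (-0.63, adjusted p = 0.481).

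In muscle of mice 1-16, 20 of 41 pathway genes tested were called, 12 higher and 8 lower, where 23.05% of all muscle genes were called. The diets did not overlap in 5 of the 6 largest changes, but these genes were picked by size and overlap was not counted over all genes. Glul, which fixes ammonia in glutamine, rose by 1.60, from 126 ± 18.2 to 382 ± 94.0 CPM (SD, n = 8 each). Odc1 rose there by 1.23, from 176 ± 30.9 to 414 ± 69.2 CPM (SD, n = 8 each). Car5b, a mitochondrial carbonic anhydrase, rose by 2.47, Slc7a2, a carrier of arginine and ornithine, by 1.004 and Prodh, a proline dehydrogenase, by 0.87. Car5b was low, with 1.57 ± 0.773 CPM in AL and 8.71 ± 6.15 CPM in IF mice (SD, n = 8 each). Cebpa rose by 1.71 (adjusted p = 0.0270) with overlap between the diets. Adipocyte markers, led by Cfd, also rose in these muscles, from 31.1 through a median of 101 to 344 CPM in AL to 115 through 706 to 1760.3 CPM in IF mice, above all AL mice in 7 of 8 and with 4 of 5 called higher. Skeletal muscle markers, led by Acta1, summed to 146187 to 161822 CPM in AL and 118554 to 170727 CPM in IF mice, below all AL mice in 5 of 8 and above them in 1, with 2 of 6 called, both lower. The part of either in the muscle changes was not tested, and more fat cells in a sample and more RNA per cell cannot be told apart. The interaction of set and diet was called for Glul (-1.31), Odc1 (-1.14), Car5b (-2.73), Slc7a2 (-0.70) and Prodh (-0.60) and not for Cebpa (-1.79, adjusted p = 0.0596). In cortex of mice 1-16, 3 of 50 were called, a share near the 7.21% of all cortex genes, namely Prodh at 0.52 with no overlap, and Klf15 at 0.50 and the nitric oxide synthase gene Nos1 at -0.31 with overlap. The count of all cortex genes called ran from 638 to 2060 with single libraries left out, and no refit of these 3 genes is given. The set by diet interactions of Prodh, Klf15 and Nos1 were -0.44 (adjusted p = 0.00919), -0.49 (adjusted p = 0.0338) and 0.79 (adjusted p = 0.127). In the same cortex libraries the neuron and glia markers, led by Mbp, summed to 8341 to 9812 CPM in AL and 9634 to 11714 CPM in IF mice, above all AL mice in 7 of 8, with Mbp called higher (0.59) and Aqp4 called lower (-0.51). That sum followed Mbp, with a mean of 3265 CPM in AL and 4905 CPM in IF mice beside mean sums of 8947 and 10624 CPM. Endothelial markers, led by Pecam1, summed to 57.7 to 68.3 CPM in AL and 45.2 to 61.5 CPM in IF mice, below all AL mice in 6 of 8, and the lowest adjusted p of the 5 genes was 0.0615. In mice 25-40 edgeR called 0 of the 52 pathway genes tested in liver, 0 of 40 in muscle and 0 of 51 in cortex, in tests that called 0, 1 and 2 of all genes, with 919, 1644 and 2069 at an unadjusted p under 0.05 and 4, 82 and 61 by DESeq2. The interaction called 23 of 52 in liver, 12 of 43 in muscle and 2 of 51 in cortex, where it called 23.7%, 14.2% and 2.03% of all genes, and the cortex count rests on 2 genes.

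Markers of the cell types that a liver sample can hold were read beside the members in mice 1-16, and their part in the changes of Otc and Asl was not tested. The counts of called markers here and in the next 2 paragraphs stand beside 44.6% of all liver genes called, 23.5% higher and 21.1% lower. Summed hepatocyte markers, with Alb the most abundant, ran from 64783 through a median of 82427 to 94832 CPM in AL and from 58188 through 68623 to 89890.3 CPM in IF mice, and 1 of 6 was called, lower. Erythrocyte markers, led by Hba-a1, ran from 406 through 585 to 915 CPM in AL and from 674 through 1980 to 6345 CPM in IF mice, and 3 of 5 were called, all higher. IF mouse 9, the lowest in Otc, had the highest erythrocyte sum. Leaving out each library in turn gave log2 fold changes of -1.45 to -1.29 for Otc and 0.91 to 1.003 for Asl, with each call kept. With a 2-fold minimum Otc kept its call, and Asl, at 1.96-fold, lost it. Over all 23 refits the adjusted p ranged from 1.13e-20 to 1.54e-07 for Otc and from 1.02e-19 to 2.32e-06 for Asl.

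Endothelial markers, led by Kdr, ran from 46.4 through 51.0 to 64.9 CPM in AL and from 68.2 through 79.1 to 108 CPM in IF livers, with no overlap and 3 of 5 called higher. Macrophage markers, led by Clec4f, ran from 146 through 168 to 234 CPM and from 168 through 206 to 399 CPM, with overlap and 2 of 6 called higher. Adipocyte markers summed to 17.9 to 46.6 CPM in AL and 4.72 to 17.4 CPM in IF mice, without overlap. That sum followed Cfd, the most abundant of them in AL mice, which was the 1 of 2 tested that was called, and Lep was at 0 in all IF livers. Neutrophil markers, led by S100a9, summed to at most 10.5 CPM in these livers, with Ly6g at 0 in AL and Ngp at 0 in IF mice, and skeletal muscle markers, led by Mylpf, to at most 9.72 CPM. Neuron and glia markers, led by Syt1, summed to at most 13.4 CPM, with Slc17a7 at 0 in AL mice, and all 3 that were tested were called, 2 higher and 1 lower.

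Zonal markers of hepatocytes were summed in the same way. Pericentral markers, led by Cyp2e1, ran from 3083 through 5167 to 7264 CPM in AL and from 7995 through 11268 to 13223 CPM in IF livers of mice 1-16, without overlap, and 6 of 8 were called, 4 higher and 2 lower. Periportal markers, led by Pck1, ran from 1455 through 1995 to 2485 CPM and from 2170.0 through 2673 to 3180.5 CPM, and 5 of 7 were called, 2 higher and 3 lower. Genes of both lists were thus called in both directions, and 3 genes of each also belong to the pathway groups above, Hal, Sds and Gls2 to the periportal and Glul, Oat and Rhbg to the pericentral list. Each sum followed its most abundant gene. The mean of Pck1 went from 542 CPM in AL to 1433 CPM in IF livers, beside mean periportal sums of 1978 and 2721 CPM. That of Cyp2e1 went from 2975 to 8499 CPM, beside mean pericentral sums of 5210 and 11112 CPM. No gene of any marker list was called in liver of mice 25-40, where edgeR called 0 genes in all.

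The members varied together to different degrees among livers of the same group. Likeness was measured as Pearson's r of log2 CPM after the mean of each set and diet was taken off, over 32 liver libraries and 13412 genes, and it is a description of libraries that share their preparation. Between members, r was 0.78 for Ass1 and Asl, 0.77 for Ass1 and Cps1, 0.65 for Ass1 and Otc, 0.61 for Cps1 and Asl and 0.39 for Otc with Cps1 and with Asl. For Nags, r was 0.45 with Asl, 0.25 with Ass1, 0.14 with Otc and 0.06 with Cps1. Thus mice with much Ass1 also had much Asl and Cps1, as in mouse 27. Among all genes, those most like Otc were Ak3 (0.88), Hsd11b1 (0.87) and Atg3 (0.84). Most like Ass1 were Aldh1l1 (0.89), its pseudogene Gm5424 (0.88) and Cth (0.83), and most like Asl were Acy1 (0.83), Gls2 (0.81) and Gpt (0.81). Those most like Cps1 were Ass1, ENSMUSG00000121142 (0.76) and Pipox (0.73). For Nags they were Ddit4 (0.65), Tm6sf2 (0.64) and Klf3 (0.64).

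Promoter sequences of RefSeq on GRCm38.p6, which run from 250 bases before to 50 bases after the start of a gene, were matched by symbol for 3 of the 5 members, Otc, Ass1 and Nags. Those of Otc, which fell in IF liver of mice 1-16, and of Ass1, which was not called, are printed because they differ in base composition, with G and C making up 44.3% of the Otc and 74.0% of the Ass1 promoter. Both are on the plus strand, at chrX:10252055-10252354 for Otc and at chr2:31470020-31470319 for Ass1.
Otc: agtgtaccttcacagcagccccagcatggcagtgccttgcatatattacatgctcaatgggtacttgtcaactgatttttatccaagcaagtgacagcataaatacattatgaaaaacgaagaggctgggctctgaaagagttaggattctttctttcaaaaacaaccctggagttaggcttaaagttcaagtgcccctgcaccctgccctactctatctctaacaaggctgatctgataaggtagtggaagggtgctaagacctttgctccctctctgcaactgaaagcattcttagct
Ass1: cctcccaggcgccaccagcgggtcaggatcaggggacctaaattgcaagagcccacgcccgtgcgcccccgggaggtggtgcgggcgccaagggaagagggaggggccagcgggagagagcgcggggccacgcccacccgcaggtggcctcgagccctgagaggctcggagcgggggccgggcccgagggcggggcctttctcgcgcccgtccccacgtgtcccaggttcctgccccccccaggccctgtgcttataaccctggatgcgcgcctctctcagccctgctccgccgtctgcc

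The 3 promoters, of which that of Nags has 57.7% G and C, were searched on both strands for the TATA box letters TATAAA, the cAMP response element TGACGTCA, the C/EBP palindrome TTGCGCAA and the hexamer AGAACA of glucocorticoid response elements. None of the 4 motifs was found in any of the 3. Of 32851 promoters of this length, 13.6% hold TATAAA, 1.79% TGACGTCA, 0.183% TTGCGCAA and 19.0% AGAACA. No match says only that these letters are not in this window. Cps1 and Asl had no entry.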

How the data were processed

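Poly-A RNA of liver, skeletal muscle and cerebral cortex of 32 mice was read on an Illumina NovaSeq system. The authors aligned the reads to GRCm39 (mm39) with HISAT2 after base calling with CASAVA, and used featureCounts to count them. The deposited values are raw read counts of 56748 genes in 96 libraries, with the length of each gene in bases in a further deposited column. The strand setting and the handling of reads shared between genes are not given in the sources used here.

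The groups follow the labels, which give tissue, diet, sex and mouse. The members and gene lists were chosen with earlier results of these data known. The cortex library of AL mouse 1 was left out because it goes against its sex label. Levels are CPM on libraries TMM-scaled within each tissue, and values per kb use the deposited length. Tests used edgeR 4.0.16 in R 4.3.3, with filterByExpr at a minimum count of 10, TMM, robust quasi-likelihood dispersions, Benjamini-Hochberg adjustment over all genes tested and a threshold of 0.05. Each tissue and set was fitted alone for the diet effect, set by diet interactions over both sets of a tissue, and tissue contrasts and tissue by diet interactions within a set with the mouse as a block, TMM-scaled over the 3 tissues, for members that passed the filter in both tissues alone. SE is the absolute log2 fold change divided by the square root of F. Library totals of 26097314 to 49838004 counts limit how finely low counts are measured, and the spread between mice comes on top of that and is given. The scripts were tested on simulated counts.

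Alternatives were DESeq2 1.42.0 (Wald test), size factors by RLE, a filter lowered to 1 count or raised to 10 counts in every library, a 2-fold minimum, the replicate number as a block, each library left out in turn, mice 2 and 10 left out, the left-out cortex library included, plain library totals and, chosen after seeing the data, the counts of Gm5424 added to Ass1. All 5 members are named (2 further listed genes are not reported here), with up to 6 other pathway genes per tissue and set that had the largest absolute log2 fold change among those called with a mean of at least 1 CPM, and the 3 genes most like each member in liver. Shared sequence was counted as 31-letter words of annotated transcripts. Sex-linked genes were read to check the labels. Python 3.11.15 with matplotlib 3.10.9 made the figures.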

Additional observations from a re-analysis of the deposited data

Results flagged for a closer look

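A library far from the others of its group, by Dixon's test at the 95% level, was found in 3 of 36 groups of a member, tissue, diet and set, where chance gives about 1 in 20. In muscle of AL mice 25-40, mouse 30 had 3.11 CPM of Ass1, and the next mouse had 2.07 CPM. In cortex of IF mice 25-40, mouse 36 had 27.9 CPM of Asl, against 22.1 CPM in the next. In liver of IF mice 1-16, mouse 15 had 86.9 CPM of Nags, against 63.4 CPM in the next.

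The diet effect in liver differed between mice 25-40 and mice 1-16 for 2 members in the interaction test of edgeR. The difference was 1.38 on the log2 scale for Otc (SE 0.19, adjusted p = 1.06e-06) and -0.70 for Asl (SE 0.19, adjusted p = 0.00601). The set of mice and the labelled sex cannot be told apart. In mice 1-16 the diet effect also differed between tissues. That of Asl in liver was above that in muscle by 1.14 (SE 0.13, adjusted p = 2.70e-08) and above that in cortex by 0.99 (SE 0.13, adjusted p = 6.06e-07).

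A signal outside the comparisons came from the cortex library of AL mouse 1, which is labelled male and held 213 CPM of Xist.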

How the results depend on the processing

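The 2-fold minimum, set for diet effects, took away the call of Asl in liver of mice 1-16 (log2 fold change 0.97), and no other alternative that was run changed the call of a member in a diet effect, an interaction or a tissue contrast. Of 468 diet values of members under the alternatives, 431 kept their direction and their side of the threshold, as did 76 of 77 differences in diet effect and 39 of 40 tissue contrasts, and all 60 levels moved by less than 1 SD with plain library totals. The values that changed sign lay near 0, and the cause was not tested. With each library left out in turn, the diet effects in liver of mice 25-40 ran from -0.13 to 0.0734 for Cps1, -0.0598 to 0.0355 for Otc, -0.0593 to 0.26 for Ass1 and -0.0265 to 0.0617 for Nags, and in cortex from -0.18 to 0.15 for Cps1, -0.0686 to 0.0348 for Ass1 and -0.0142 to 0.0726 for Asl. In muscle of mice 25-40 they ran from -0.40 to -0.16 for Ass1 and 0.06 to 0.21 for Asl. In mice 1-16 they ran from -0.22 to -0.03 for Ass1 in muscle. In cortex of mice 1-16 they ran from 0.18 to 0.59 for Cps1, 0.15 to 0.29 for Ass1 and -0.09 to -0.01 for Asl. Cps1 in cortex of mice 25-40 was 0.0314 with the replicate block. With RLE size factors the liver minus muscle difference in diet effect was 0.0247 for Ass1 in mice 1-16, and with at least 10 counts in every library the muscle minus cortex contrast of Asl in AL mice 25-40 was -0.0200. Counts of called genes moved more. A 2-fold minimum left 2388 genes in liver, 399 in muscle and 89 in cortex of mice 1-16. In cortex of mice 1-16 the count was 2187 with DESeq2, 382 with the replicate block, 498 without mice 2 and 10 and 294 with the cortex library of AL mouse 1. DESeq2 called 4, 82 and 61 genes in liver, muscle and cortex of mice 25-40, where muscle without the filter gave 5 and cortex with the replicate block 0. The cortex set by diet interaction gave 709 genes with DESeq2 and 184 without mice 2 and 10. With at least 10 counts in every library, which leaves fewer genes to test, the tissue contrasts gave 9599, 9516 and 9501 genes in mice 1-16 and 9679, 9650 and 9537 in mice 25-40. The difference in diet effect in mice 25-40 gave 13 genes without the mouse block, 2 with RLE size factors and 4 with at least 10 counts for liver minus muscle, and 12 without the mouse block and 4 with at least 10 counts for liver minus cortex. With single libraries left out, the count ran from 6842 to 7219 in liver, 2933 to 3740.0 in muscle and 638 to 2060.0 in cortex of mice 1-16, and from 1 to 3 in muscle and 0 to 254 in cortex of mice 25-40, with 0 throughout in liver. The cortex count of mice 1-16 moved by over 1.5 times without AL mouse 2 (638), 3 (766) or 5 (771) or without IF mouse 11 (877), 12 (2060.0), 13 (866) or 14 (823), the muscle count of mice 25-40 without AL mouse 27 (3) or IF mouse 33 (2), and the cortex count of mice 25-40 to 254 without AL mouse 26 and to 0 or 1 without each of the others but AL mouse 32. AL and IF mice of the same replicate number are different animals and did not deviate together (mean r of -0.09 to 0.08 over tissues and sets). The replicate block was therefore kept as an alternative, and it changed the call of no member. Depth limits the values of Nags, Cps1 and Otc outside the liver, which rest on at most 28 counts per library, and Cps1 in cortex has no value under the filter of at least 10 counts in every library.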
